A study of Sus scrofa with 15 samples.

Results

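The 66 mitochondrial ribosomal protein genes of the piglet testis were taken from a table of 30476 genes as every row whose symbol starts with MRPL or MRPS followed by a digit. Of these, 40 carry an MRPL symbol, for the large subunit of the mitochondrial ribosome, and 26 an MRPS symbol, for the small subunit. They were measured in testes of male piglets on postnatal day 21, with 3 libraries, each labelled as a separate sample, in each of 5 diet groups. After birth all piglets suckled for 2 days and were then fed sow milk (Sow), a cow's milk formula (Milk), a soy protein isolate formula (Soy), the milk formula with added estradiol (M + E2), or the milk formula with added genistein at 84 mg/L (M + G), a concentration that the labels place in serum and the paper's methods in the diet. Estradiol is the main estrogen, and genistein is an isoflavone of soy that can bind estrogen receptors. M + E2 was the estrogen control. M + E2 and M + G share the formula of Milk, so Milk is the group that differs from them by the added compound alone, while Sow differs from every other group by the whole diet. The testis was taken whole, as a mixture of cell types.

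Mitochondria carry their own ribosome, which translates the few mRNAs of the mitochondrial genome, all of them for subunits of the respiratory chain and ATP synthase. Its rRNAs come from the mitochondrial genome, whereas all of its proteins are encoded in the nucleus, made in the cytosol and imported. The proteins fall into those with a counterpart in bacterial ribosomes and those found only in mitochondria. Leydig cells, which make the steroids of the testis, start that synthesis at the inner mitochondrial membrane.

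Symbols and places in the particle do not match for 3 of the genes. MRPS30 and MRPS18A encode proteins of the large subunit, and MRPS36 encodes a subunit of the 2-oxoglutarate dehydrogenase complex, so subunits were also counted by place. Each library had between 6097552 and 9488579 reads on genes (median 8198038), and the 66 genes together took 0.209% to 0.404% of them. The expression filter (10 reads as its minimum count) kept 65 of the 66. MRPL10, a protein of the stalk that recruits translation factors, had 0 to 7 reads per library and was not tested, and a count of 0 allows up to 3 reads. Of the tested members, MRPS16 had the fewest reads, 7 to 19 per library. The library Sow 2, which the paper left out for its low correlation values, entered no comparison, so Sow has 2 libraries there. Of the fixed markers, 5 of 6 for Leydig cells, 6 of 6 for Sertoli cells and 5 of 6 for germ cells were in the table, each with reads in some library.

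The summed level of the 66 genes, in scaled read counts per library (CPM, counts adjusted to a common library size and composition), was highest in Sow and lowest in M + E2. It was 3682 and 3317 CPM in the Sow libraries, 3651, 3076 and 2241 in Milk, 3494, 2535 and 2006 in Soy, 1884, 2120.3 and 2081 in M + E2 and 2568, 2668 and 2373 in M + G. The M + E2 libraries overlapped only the Soy range, through Soy 3 at 2006 CPM. Milk and Soy each spread widely, with Milk 3 and Soy 3 the lowest of their groups. Within a group the highest library exceeded the lowest by a median over the tested members of 1.74-fold in Milk and 1.67-fold in Soy, against 1.30-fold in M + E2, 1.24-fold in M + G and 1.13-fold between the Sow libraries. Large subunit genes summed to 2437 and 2155 CPM in Sow and 1206, 1355 and 1325 in M + E2. Small subunit genes summed to 1246 and 1162 CPM in Sow and 678, 765 and 755 in M + E2.

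Other levels also differed between the libraries, some in the direction of these sums and some not, and their part in the results below was not tested. Cytosolic ribosomal protein genes summed to 72622 and 63923 CPM in Sow, 61213, 63749 and 26769.7 in Milk, 63453, 30258 and 25779.6 in Soy, 27957, 34246 and 43138 in M + E2 and 31730.2, 44759 and 30618 in M + G, so that Milk 3 and Soy 3 were low there too. The Leydig cell markers summed to 13970.3, 13282 and 13048 CPM in M + E2 and 19974 and 19564 in Sow, with a range from 10415 in Milk 2 to 24803 among the Milk, Soy and M + G libraries. All 5 of the tested Leydig genes had a log2 fold change below 0 in M + E2 against Sow, with a median of −0.65. The Sertoli cell markers summed to 2935, 2951 and 2830.3 CPM in M + E2 against 2029.9 and 1852 in Sow, and the log2 fold change of M + E2 against Sow was above 0 for 4 of the 6 genes and below 0 for 2. Germ cell markers summed to 215, 255 and 274 CPM in M + E2 and 171 and 167 in Sow (2 of 4 tested genes below 0). Endothelial markers summed to 507, 646 and 473 CPM in M + E2 and 238 and 315 in Sow (0 of 3 below 0), and macrophage markers to 130.3, 132 and 120.0 CPM and 90.8 and 92.6 in that order (1 of 4 below 0). For each of these 4 lists the M + E2 sums lay above both Sow sums. Markers of peritubular myoid cells, the contractile cells around the tubules, set Milk 2 (2225 CPM), Soy 3 (2973) and M + G 2 (1585) apart from the other libraries in the fit (220.1 to 621). The 2 markers of epididymal or rete epithelium in the table, both low, set M + G apart. They summed to 5.01, 31.8 and 8.68 CPM there and to 1.24 to 3.63 in the other libraries in the fit. In bulk testis RNA, fewer cells of a type and less RNA per cell cannot be told apart.

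**Figure D1:**
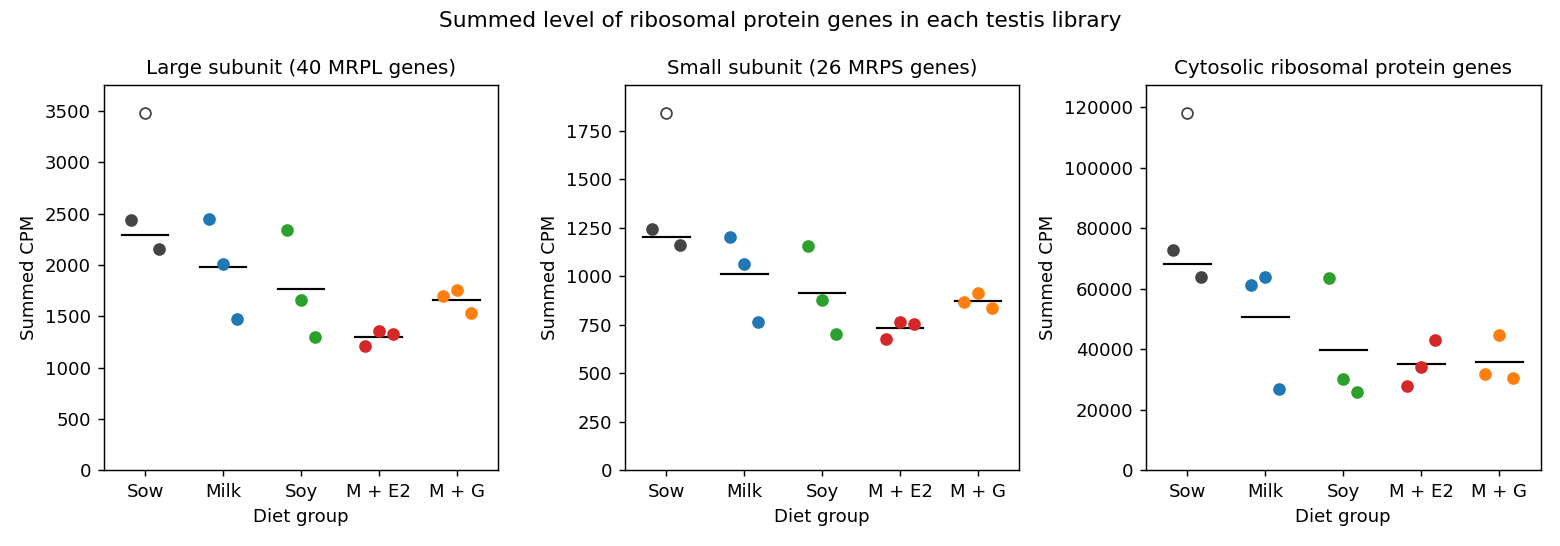
Summed CPM of the large subunit, small subunit and cytosolic ribosomal protein genes (vertical axes, from 0) in each library by diet group (horizontal axis), with group means as lines that leave out Sow 2 (open circle). M + E2 had the lowest group mean in all 3 panels, with libraries from 1206 to 1355 CPM for the large subunit. For the cytosolic genes its mean, 35114 CPM, was close to that of M + G, 35702 CPM. Sow 2 lay above every other library in all 3 panels.

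M + E2 against Sow asks how estrogen-supplemented formula compares with sow milk, and 17 of the 65 tested members were called lower there and 0 higher. Calls needed p-values of edgeR's quasi-likelihood test, adjusted over all 15634 genes by the Benjamini-Hochberg method, to be at most 0.05, and a change of 2-fold or more. Over all genes, 3.56% were called lower and 1.44% higher. The log2 fold change was below 0 for 64 of the 65 members (49.5% of all genes), with a median of −0.80 against 0.0095 over all genes. At adjusted p alone 24 members were lower (5.6% of all genes), and at an unadjusted p under 0.05 it was 54 (19.2%). The groups did not overlap for 61 members, all with M + E2 the lower (28.6% of all genes). The 17 adjusted p-values lay between 0.0343 and 0.0499, close under the threshold, and the count moved with the libraries in the fit. It was 0 without M + E2 1, 0 without M + E2 2, 0 without M + E2 3, 0 without M + G 1, 0 without Soy 2, 1 without M + G 3 and 7 without M + G 2, and 37 without either Sow library when Sow 2 took its place. A further fit took the mean log2 level of the cytosolic ribosomal protein genes as a covariate, chosen after seeing the data. There 0 members were called, 21 had an unadjusted p under 0.05, and 58 were below 0. The counts of these alternative fits are given without the share of all genes, so they describe the members alone.

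**Figure D2:**
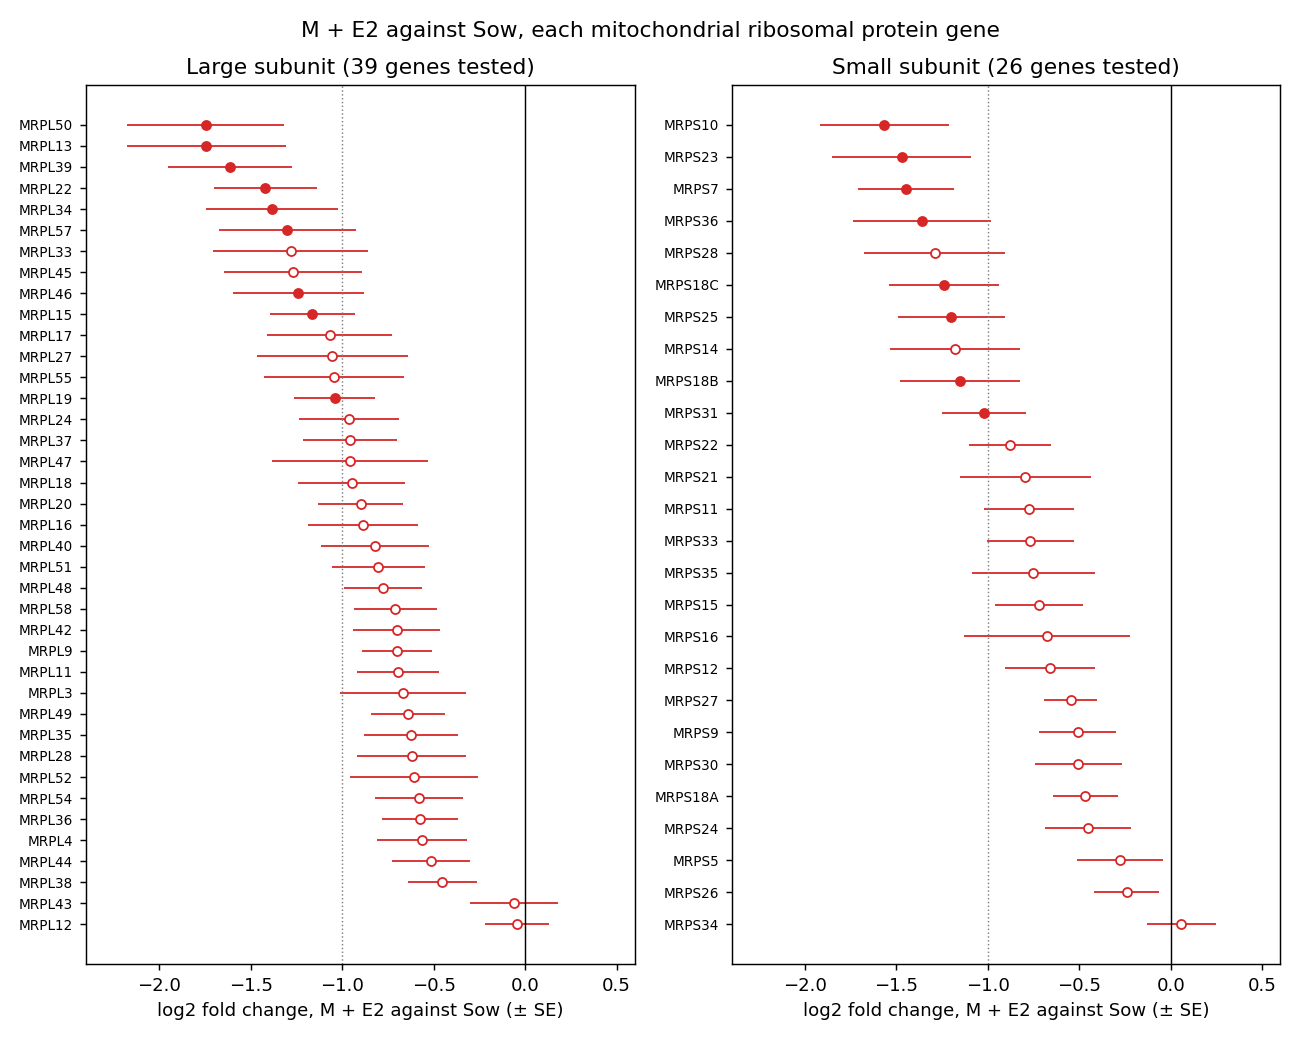
Log2 fold change of M + E2 against Sow with its standard error (horizontal axis) for each tested large and small subunit gene (vertical axis), with called genes as filled points and a dotted line at 2-fold lower. The called genes lie at the low end in both subunits, and MRPS34, at 0.059, is the one gene above 0.

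In the large subunit 9 of 39 tested genes were called lower. The lowest fold change was that of MRPL50, a protein found only in mitochondrial ribosomes (ENSSSCG00000027974, chromosome 1, 243100365 to 243106831 in Sscrofa11.1). MRPL50 had 40.1 and 38.3 CPM in Sow, 32.7, 30.9 and 10.7 in Milk, 33.8, 17.8 and 12.2 in Soy, 10.4, 12.4 and 13.8 in M + E2 and 16.2, 17.05 and 12.7 in M + G. Its M + E2 libraries lay well below both Sow libraries but overlapped Milk and Soy, through Milk 3 and Soy 3, and the log2 fold change was −1.75 ± 0.43 (SE), adjusted p = 0.0402. MRPL39, which is related to threonyl-tRNA synthetases (ENSSSCG00000012021, chromosome 13, 189148711 to 189166302), had 104 and 95.003 CPM in Sow, 71.98, 56.4 and 32.9 in Milk, 74.9, 47.9 and 30.995 in Soy, 31.2, 30.03 and 41.001 in M + E2 and 36.5, 38.6 and 30.8 in M + G. Sow stood above every other library of MRPL39, while M + E2 and M + G overlapped, and the log2 fold change was −1.62 ± 0.34 (SE), adjusted p = 0.0374. MRPL22, whose bacterial counterpart lines the tunnel through which the new protein leaves (ENSSSCG00000017065, chromosome 16, 68229725 to 68279103), had 117 and 120.0 CPM in Sow, 99.5, 89.4 and 52.9 in Milk, 89.01, 63.6 and 47.7 in Soy, 42.8, 41.4 and 55.1 in M + E2 and 58.2, 63.8 and 49.3 in M + G. Its Sow libraries again stood above all others, and the log2 fold change was −1.42 ± 0.28 (SE), adjusted p = 0.0356. MRPL13, the counterpart of a bacterial protein that joins the large subunit early in assembly, had 48.8 and 45.3 CPM in Sow and 11.4, 14.7 and 17.998 in M + E2, a log2 fold change of −1.74 ± 0.44 (SE), adjusted p = 0.0406. MRPL34, among the smallest proteins of the large subunit, had 68.7 and 60.02 CPM in Sow and 20.5, 29.1 and 27.9 in M + E2, with a log2 fold change of −1.38 ± 0.36 (SE), adjusted p = 0.0432.

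The remaining 4 called genes of the large subunit had smaller fold changes. MRPL57, a mitochondria-specific protein, had 70.9 and 55.7 CPM in Sow and 20.1, 34.3 and 26.6 in M + E2 (log2 fold change −1.30). MRPL46, also mitochondria-specific, had 47.2 and 35.9 CPM in Sow and 14.7, 19.3 and 21.3 in M + E2 (log2 fold change −1.24). MRPL15, with a bacterial counterpart, had 90.1 and 76.7 CPM in Sow and 35.98, 36.9 and 44.2 in M + E2 (log2 fold change −1.16). MRPL19, whose bacterial counterpart touches the small subunit, had 25.02 and 24.3 CPM in Sow and 11.4, 10.7 and 15.4 in M + E2 (log2 fold change −1.04). For all 4 the 3 M + E2 libraries lay below both Sow libraries. A further 5 large subunit genes passed the adjusted p but not the 2-fold minimum. These were MRPL24 (−0.96), MRPL37 (−0.96), MRPL20 (−0.90), MRPL48 (−0.78) and MRPL9 (−0.70), each as a log2 fold change.

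In the small subunit 8 of 26 tested genes were called lower. MRPS7, which in its bacterial form organizes the head of the small subunit (ENSSSCG00000035134, chromosome 12, 6052109 to 6055669), had the smallest p of all members. MRPS7 had 40.9 and 31.7 CPM in Sow, 27.2, 26.5 and 16.7 in Milk, 24.8, 22.3 and 14.9 in Soy, 13.3, 14.4 and 14.2 in M + E2 and 19.3, 21.2 and 14.7 in M + G. Every M + E2 library of MRPS7 was below every library of the other groups, the nearest being M + G 3 and Soy 3, and the log2 fold change was −1.45 ± 0.26 (SE), adjusted p = 0.0343. MRPS10, another protein of the head (ENSSSCG00000001638, chromosome 7, 37318344 to 37329246), had 96.05 and 97.8 CPM in Sow, 76.3, 67.6 and 32.4 in Milk, 83.2, 45.6 and 36.6 in Soy, 29.9, 35.5 and 37.5 in M + E2 and 43.9, 46.4 and 32.6 in M + G. Its Sow libraries were the highest and its M + E2 libraries overlapped Milk, Soy and M + G, with a log2 fold change of −1.56 ± 0.35 (SE), adjusted p = 0.0374. MRPS23, a mitochondria-specific protein, had 44.9 and 45.4 CPM in Sow and 15.5, 15.1 and 20.6 in M + E2, a log2 fold change of −1.47 ± 0.38 (SE), adjusted p = 0.0427. MRPS25, also mitochondria-specific, had 54.6 and 51.9 CPM in Sow and 20.2, 28.6 and 24.1 in M + E2, a log2 fold change of −1.20 ± 0.29 (SE), adjusted p = 0.0402. MRPS31, likewise without a bacterial counterpart, had 51.9 and 44.9 CPM in Sow and 23.99, 21.3 and 29.6 in M + E2, with a log2 fold change of −1.02 ± 0.23 (SE), adjusted p = 0.0374. MRPS22 (−0.88) and MRPS27 (−0.55) passed the adjusted p but not the 2-fold minimum.

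The 3 genes of the MRPS18 family, which mammals carry as paralogs of a single bacterial protein, differed in their change. MRPS18C, the closest in place to the bacterial protein, had 17.2 and 18.4 CPM in Sow, 15.8, 17.98 and 9.09 in Milk, 20.5, 13.6 and 10.6 in Soy, 6.94, 7.54 and 9.16 in M + E2 and 10.9, 12.5 and 10.6 in M + G, and its log2 fold change of M + E2 against Sow was −1.24 ± 0.30 (SE), adjusted p = 0.0401. MRPS18B, which sits elsewhere on the small subunit, had 76.5 and 59.8 CPM in Sow, 58.98, 42.5 and 29.5 in Milk, 55.5, 33.1 and 23.7 in Soy, 28.8, 32.7 and 35.04 in M + E2 and 41.2, 40.2 and 30.4 in M + G, with a log2 fold change of −1.15 ± 0.33 (SE), adjusted p = 0.0489. MRPS18A, the paralog of the large subunit, had 57.3 and 50.7 CPM in Sow, 61.5, 55.2 and 47.2 in Milk, 52.2, 42.004 and 36.9 in Soy, 38.01, 42.9 and 41.96 in M + E2 and 43.6, 47.1 and 47.5 in M + G, with a log2 fold change of −0.47 ± 0.18 (SE), adjusted p = 0.0889. MRPS18B and MRPS18C were thus called and MRPS18A was not, a difference between paralogs that was not itself tested. MRPS30, the other large subunit protein with an MRPS symbol, was not called, with 26.9 and 24.2 CPM in Sow, 27.9, 23.7 and 16.7 in Milk, 24.3, 20.6 and 14.5 in Soy, 16.8, 20.3 and 19.5 in M + E2 and 20.9, 21.4 and 19.8 in M + G and a log2 fold change of −0.51 ± 0.24 (SE), adjusted p = 0.152. MRPS36, the dehydrogenase subunit, was called, with 58.8 and 54.6 CPM in Sow, 48.8, 43.5 and 22.8 in Milk, 58.4, 34.7 and 19.03 in Soy, 20.1, 22.6 and 26.6 in M + E2 and 28.8, 33.3 and 24.6 in M + G and a log2 fold change of −1.36 ± 0.38 (SE), adjusted p = 0.0468.

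For 4 members the M + E2 and Sow libraries overlapped. MRPL12, the stalk protein that binds translation factors and is known to associate with the mitochondrial RNA polymerase, had 92.5 and 81.2 CPM in Sow, 113, 92.9 and 107 in Milk, 97.3, 93.2 and 99.6 in Soy, 89.6, 105 and 71.03 in M + E2 and 91.02, 95.9 and 93.1 in M + G. No group of MRPL12 stood apart, and the log2 fold change was −0.043 ± 0.18 (SE), adjusted p = 0.883. MRPS34, a mitochondria-specific protein of the small subunit, had 38.9 and 36.9 CPM in Sow, 50.8, 40.6 and 49.6 in Milk, 46.7, 38.9 and 41.8 in Soy, 39.02, 50.6 and 34.5 in M + E2 and 46.6, 49.2 and 58.1 in M + G. Its M + E2 libraries spanned the Sow range, and its log2 fold change was 0.059 ± 0.19 (SE), adjusted p = 0.852. This fold change turned to −0.048 with all 3 Sow libraries and to −0.11 without M + E2 2. With Sow 2 (52.6 CPM) put in place of the library left out, it was −0.19 without the unnumbered Sow library. In the same way it was −0.15 without Sow 3. MRPL43 (−0.061, 33 to 82 reads per library) and MRPS26 (−0.24) were the others, as log2 fold changes. MRPS34 and MRPL43 were the 2 members whose M + G libraries all lay above both Sow libraries (27.5% of all genes).

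**Figure D3:**
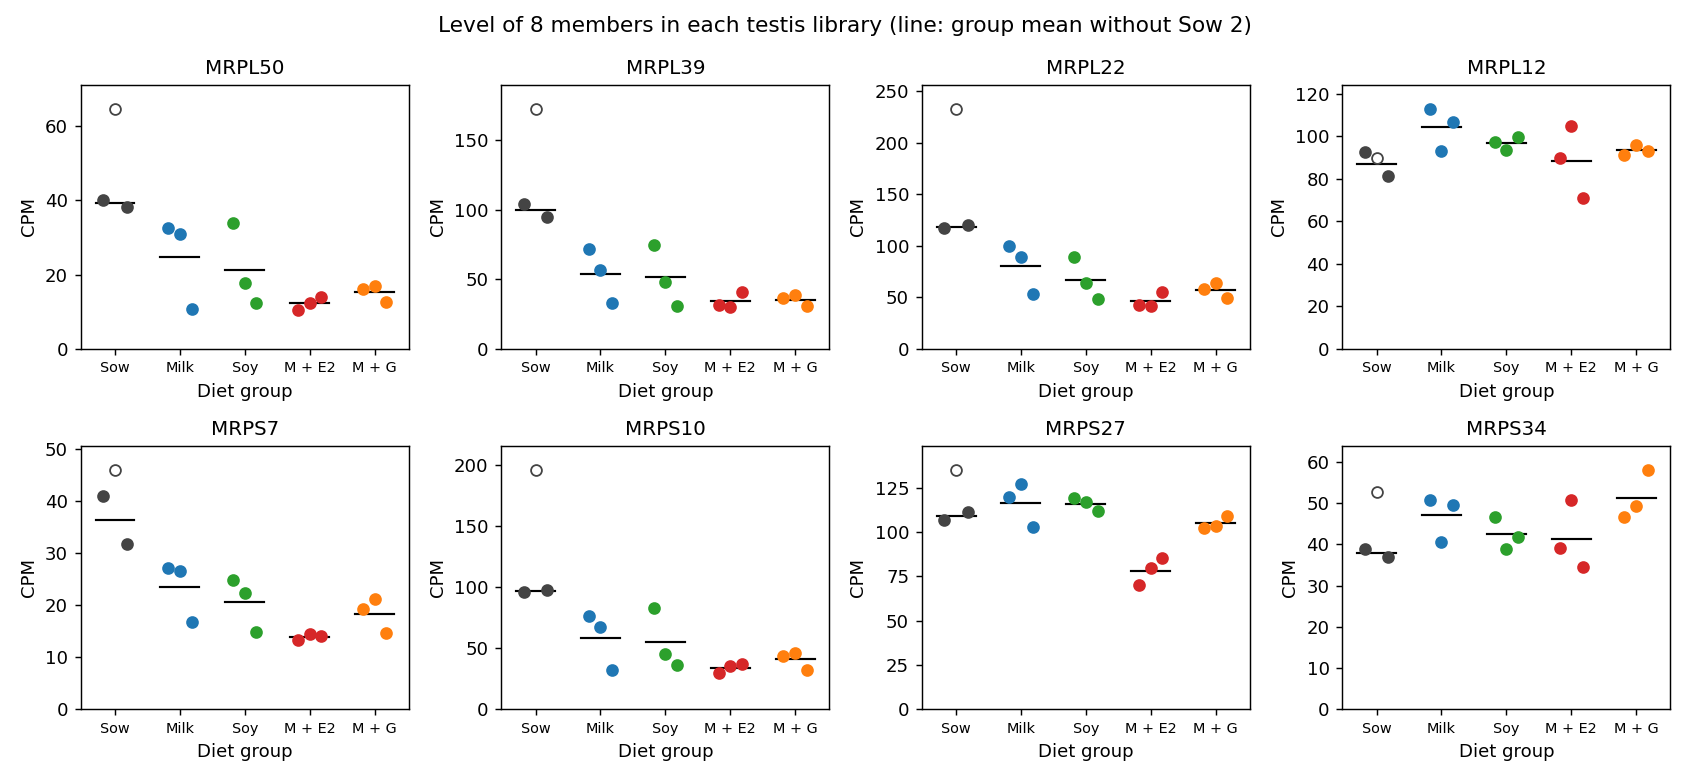
CPM of 8 members (vertical axes, from 0) in each library by diet group (horizontal axis), with group means as lines that leave out Sow 2 (open circle). MRPL50, MRPL39, MRPL22, MRPS7 and MRPS10 are highest in Sow, MRPS27 is lowest in M + E2 alone, and MRPL12 and MRPS34 overlap between Sow and M + E2.

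The subunits were close to each other in M + E2 against Sow. The median log2 fold change was −0.88 over the 39 large subunit genes and −0.77 over the 26 small subunit genes, and by place in the particle it was −0.82 over 41 and −0.77 over 23. All 39 large and 25 of 26 small subunit genes were below 0. Large subunit genes with a bacterial counterpart had a median of −0.95 (5 of 23 called, by place) and mitochondria-specific ones −0.74 (4 of 18 called). In the small subunit these medians were −0.78 (4 of 14 called) and −0.77 (3 of 9 called). The difference between these medians was not tested.

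Within each library, reads on large subunit genes were set against reads on small subunit genes, a ratio that does not depend on depth or scaling. Its log2 was 0.97 and 0.89 in the Sow libraries, 1.02, 0.92 and 0.95 in Milk, 1.02, 0.92 and 0.89 in Soy, 0.83, 0.82 and 0.81 in M + E2 and 0.97, 0.93 and 0.87 in M + G. The 3 M + E2 libraries were the lowest of all, close together, and M + G 3 came next at 0.87. Counting error of the ratio was 0.016 to 0.026 (SE), covering counting error only, and the bars of 1 SE around M + G 3 and around M + E2 1, the highest M + E2 library, overlapped. With the genes assigned by place, the M + E2 libraries stayed the lowest, at 1.06, 1.06 and 1.06, and the next was Soy 3 at 1.096. On the mean log2 CPM of the members, which gives every gene the same weight, M + E2 was 0.24, 0.30 and 0.29, and M + G 3, at 0.29, fell inside that range. The ratio was not tested, since the members were chosen with earlier results known.

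**Figure D4:**
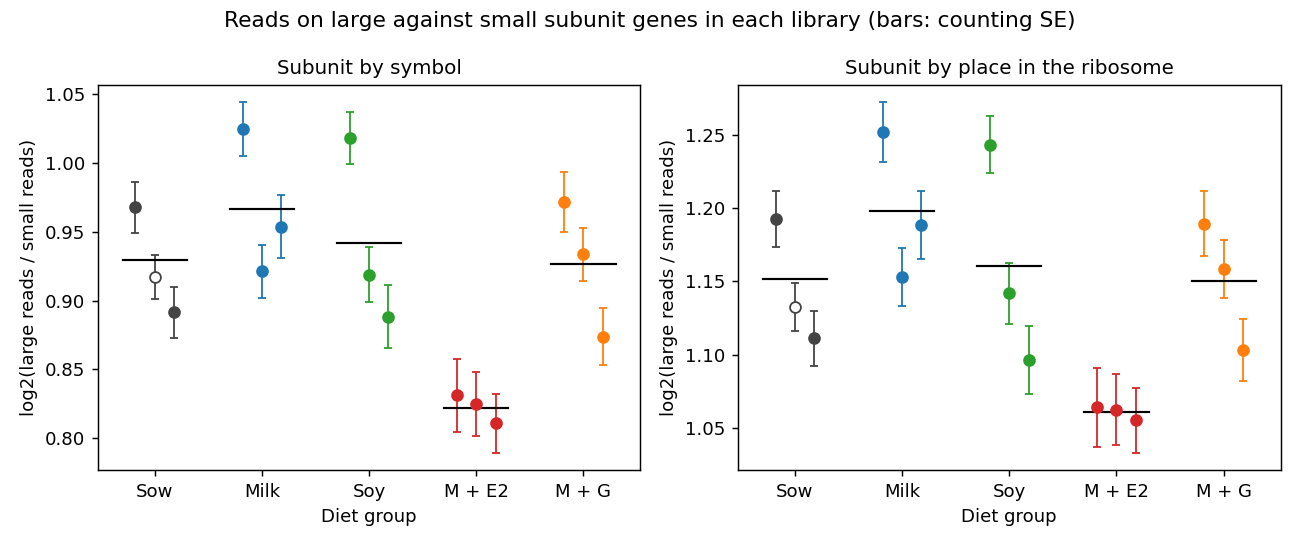
Log2 ratio of reads on large to reads on small subunit genes (vertical axes, not from 0) in each library by diet group, with subunits by symbol on the left and by place in the ribosome on the right. Bars are the counting SE and lines the group means without Sow 2 (open circle), and the M + E2 libraries are the lowest in both panels.

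M + G against Sow, which compares genistein-supplemented formula with sow milk and so differs by the whole diet, gave lower fold changes for most members but no calls. Of the 65 members 60 were below 0 (48.6% of all genes), with a median log2 fold change of −0.55 (large −0.55, small −0.52) against 0.020 over all genes. None was called, and of all genes 0.0384% were called lower. At an unadjusted p under 0.05 it was 27 members lower (13.7% of all genes). MRPL39 had the smallest p of the large subunit, at −1.53 ± 0.34 (SE), adjusted p = 0.116, ahead of MRPL22 (−1.09) and MRPL15 (−0.88). MRPS7 had the smallest p of the small subunit, at −1.02 ± 0.26 (SE), adjusted p = 0.124, ahead of MRPS10 (−1.28) and MRPS25 (−0.88). The call depended on the Sow libraries and on the test, and the counts that follow come without the share of all genes. With all 3 Sow libraries 19 members were called, without the unnumbered Sow library 17, without Sow 3 21 (each with Sow 2 put back), without Milk 3 1, in a fit of these groups alone 8, by edgeR's exact test 8 and by DESeq2's Wald test 5.

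Soy and Milk lay nearer to Sow, and no member was called in either. In Soy against Sow, 59 of 65 members (48.4% of all genes) were below 0 with a median of −0.37 on the log2 scale (0.020 over all genes), 0.0128% of all genes were called lower, and 13 members had an unadjusted p under 0.05 in that direction (7.46%). In the large subunit the smallest p-values were those of MRPL22 (−0.84 ± 0.28 (SE), adjusted p = 0.32), MRPL15 (−0.68) and MRPL39 (−0.97). In the small subunit they were those of MRPS7 (−0.82 ± 0.26 (SE), adjusted p = 0.32), MRPS25 (−0.83) and MRPS18B (−0.88). In Milk against Sow, 56 of 65 (49.8% of all genes) were below 0 with a median of −0.26 (0.0020 over all genes), 0.0128% of all genes were called lower, and 5 members had an unadjusted p under 0.05 (5.99%). MRPL39 (−0.93 ± 0.34 (SE), adjusted p = 0.38), MRPL15 (−0.52) and MRPL44 (−0.48) led the large subunit. MRPS7 (−0.67 ± 0.26 (SE), adjusted p = 0.383), MRPS10 (−0.76) and MRPS18B (−0.68) led the small one. DESeq2's Wald test and edgeR's exact test also called 0 members in both. All 4 comparisons with Sow share its 2 libraries, so a value that was high or low in those libraries enters each of them.

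**Figure D5:**
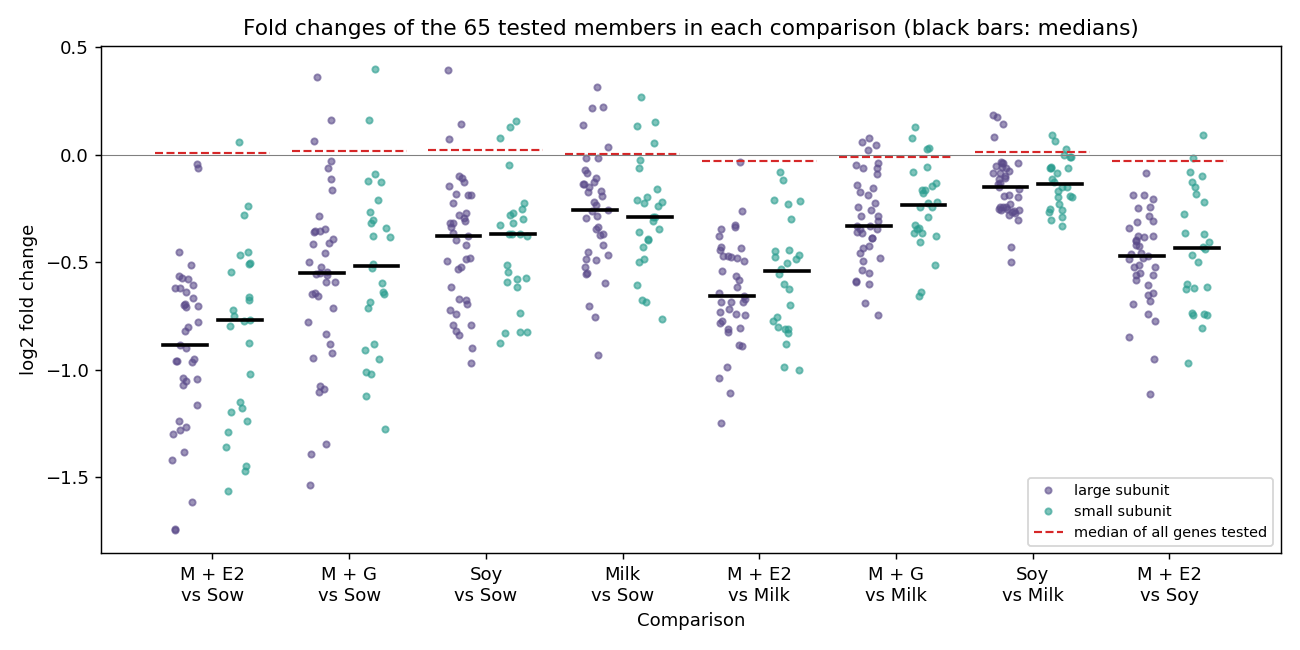
Log2 fold change (vertical axis) of each tested large and small subunit gene in the 8 comparisons (horizontal axis), with black bars for the median of each subunit and a dashed line for the median of all genes tested. Medians run from −0.88 for the large subunit in M + E2 vs Sow to −0.14 for the small subunit in Soy vs Milk, and the medians of all genes lie between −0.030 and 0.020.

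Against Milk, the group that differs from M + E2 by estradiol alone, all 65 members were below 0, with a median log2 fold change of −0.61 (large −0.66, small −0.54) against −0.029 over all genes (52.4% of them below 0). None was called, as for all genes (0%), and 42 had an unadjusted p under 0.05 (10.5% of all genes). The paper, by edgeR's exact test at the same thresholds, did report differentially expressed genes between M + E2 and Milk. The 0% thus belongs to the fit used here. The groups did not overlap for 18 members (7.77%). The adjusted p-values were nearest to the threshold for MRPS27, a protein with pentatricopeptide repeats, which are known for binding RNA. MRPS27 had 107 and 111 CPM in Sow, 119.7, 127 and 103 in Milk, 119, 117 and 112 in Soy, 69.9, 79.9 and 85.2 in M + E2 and 102, 104 and 109 in M + G, so that every M + E2 library was below every other library. Its log2 fold change was −0.60 ± 0.13 (SE), adjusted p = 0.175 against Milk, and −0.62 ± 0.13 (SE), adjusted p = 0.0958 against Soy. MRPL20, whose bacterial counterpart is needed for assembly of the large subunit, had 43.7 and 34.6 CPM in Sow, 45.97, 45.5 and 28.5 in Milk, 44.4, 34.9 and 29.3 in Soy, 20.2, 21.2 and 24.6 in M + E2 and 27.1, 30.2 and 25.1 in M + G, again with M + E2 below all others, and −0.89 ± 0.21 (SE), adjusted p = 0.186 against Milk. MRPL34, at −1.25 ± 0.33 (SE), adjusted p = 0.186, was the single member called by DESeq2's Wald test, as it was by edgeR's exact test. MRPS12, the counterpart of a bacterial protein of the decoding centre, had 19.8, 21.2 and 15.3 CPM in Milk and 9.25, 13.8 and 9.58 in M + E2, a log2 fold change of −0.81 ± 0.22 (SE), adjusted p = 0.186. MRPL19 (−0.67) and MRPS7 (−0.77) followed. The result turned on Milk 3, the lowest Milk library, and without it 17 members were called, among 1256 of all genes.

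Against Soy, 64 of 65 members (53.2% of all genes) were below 0 in M + E2, with a median log2 fold change of −0.46 (−0.030 over all genes). None was called, with 0.122% of all genes called lower, and 19 had an unadjusted p under 0.05 (8.37%). DESeq2's Wald test and edgeR's exact test also called 0. After MRPS27 the smallest p-values were those of MRPL20 (−0.77 ± 0.21 (SE), adjusted p = 0.174), MRPS18C (−0.97 ± 0.28 (SE), adjusted p = 0.183) and MRPL34 (−1.11 ± 0.33 (SE), adjusted p = 0.188), followed by MRPL51 (−0.70) and MRPS12 (−0.61). Chosen after their values were seen, 5 members had every M + E2 library below each of the 11 libraries of the other groups, namely MRPL20, MRPL34, MRPL51, MRPS7 and MRPS27, or 7.69% of the members against 2.31% of all genes. No member had M + E2 above all others (2.82% of all genes). M + E2 had the lowest group mean for 59 of the 65 members (25.9% of all genes), and Sow had the highest for 52 (31.4%).

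M + G and Soy were also compared with Milk. In M + G against Milk, 57 of 65 members (51.4% of all genes) were below 0 with a median log2 fold change of −0.28, none was called (0% of all genes), and 1 had an unadjusted p under 0.05, MRPL20 at −0.54 ± 0.21 (SE), adjusted p = 0.94 (1.22% of all genes). MRPL39 (−0.60) and MRPL33 (−0.75) followed in the large subunit, and MRPS28 (−0.66), MRPS23 (−0.64) and MRPS12 (−0.36) led the small one. In Soy against Milk, 58 (48.1% of all genes) were below 0 with a median of −0.15, which came above 0 in both subunits without Milk 1 (large 0.016, small 0.050) and without Soy 3 (0.018 and 0.034). None was called (0% of all genes), and 0 had an unadjusted p under 0.05 (1.07% of all genes). The smallest p-values there were those of MRPL52 (−0.43), MRPL36 (−0.25) and MRPL33 (−0.50), and of MRPS18A (−0.29), MRPS5 (−0.31) and MRPS25 (−0.33). DESeq2's Wald test also called 0 members in either comparison. With these spreads, differences of this size were not called, which does not show that the groups were alike.

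A test of any difference among the 5 diets (edgeR's quasi-likelihood F test) passed for none of the 65 members, and for 0.064% of all genes. At an unadjusted p under 0.05 it was 18 of 39 large and 12 of 26 small subunit genes, against 18.1% of all genes. The 3 smallest p-values in the large subunit belonged to MRPL39 (adjusted p = 0.186), MRPL22 (adjusted p = 0.189) and MRPL15 (adjusted p = 0.194), and the 3 smallest in the small subunit to MRPS7 (adjusted p = 0.184), MRPS27 (adjusted p = 0.194) and MRPS10 (adjusted p = 0.202). Without Milk 3 the test passed for 18 members, among 1042 of all genes.

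Across the 14 libraries the members varied together. The median Pearson correlation of log2 CPM was 0.78 between pairs of large subunit genes, 0.79 between pairs of small subunit genes and 0.78 between the subunits, and with group means removed it was 0.71, 0.79 and 0.76. These are descriptions over shared libraries, without a test. For 48 of 65 members the correlation with the mean of the others was above 0.8, as for 12.6% of all genes tested. The lowest were MRPS34 at −0.033, MRPL12 at 0.11 and MRPL43 at 0.24, which are also 3 of the 4 members whose M + E2 and Sow libraries overlapped. The cytosolic ribosomal protein genes had medians of −1.04 in M + E2 against Sow, −1.01 in M + G against Sow, −0.82 in Soy against Sow and −0.44 in Milk against Sow, beside −0.80, −0.55, −0.37 and −0.26 for the members. In M + E2 against Milk they were close, with −0.57 for the cytosolic genes and −0.61 for the members, and in M + E2 against Soy the members were the lower, with −0.26 for the cytosolic genes and −0.46 for the members.

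The 13 protein-coding genes of the mitochondrial genome, which this ribosome translates, were all below 0 in M + E2 against Sow. Their median log2 fold change was −0.97, and 3 were called lower, as were 3.56% of all genes. In M + E2 against Milk they were all below 0 too, with a median of −0.61 beside −0.61 for the members. Against Soy all 13 were again below 0 in M + E2, with a median of −1.04. In Soy against Milk they were all above 0, with a median of 0.45, where the members had −0.15. The mitochondrial rRNAs were not found under their symbols and were not analysed here.

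Other genes of the same pathway were described from lists, and in M + E2 against Sow, where 3.56% of all genes were called lower, some of their genes were called. Of 5 further proteins of the particle without an MRP symbol, all were below 0 and 0 called, with PTCD3, a pentatricopeptide repeat protein of the small subunit, at −0.44 ± 0.18 (SE), adjusted p = 0.105. Of 22 tested assembly factors 19 were below 0 (median −0.35) and 4 were called. GTPBP8, a mitochondrial GTPase linked to ribosome assembly, had 31.3 and 29.6 CPM in Sow and 11.99, 11.6 and 11.6 in M + E2, a log2 fold change of −1.44 ± 0.25 (SE), adjusted p = 0.033. FASTKD2, which binds the rRNA of the large subunit, had 46.1 and 39.2 CPM in Sow and 15.6, 12.5 and 18.4 in M + E2, a log2 fold change of −1.52 ± 0.30 (SE), adjusted p = 0.0356. The others were GTPBP10 (−1.28), a GTPase of large subunit assembly, and MALSU1 (−1.01), which keeps immature large subunits from joining. Of 15 translation factors and mRNA partners 14 were below 0 (median −0.56) and SLIRP, which stabilizes mitochondrial mRNAs together with LRPPRC, was called, with 23.3 and 30.3 CPM in Sow and 6.50, 9.46 and 10.1 in M + E2 and a log2 fold change of −1.68 ± 0.38 (SE), adjusted p = 0.0374. GFM1, an elongation factor (−0.87), and LRPPRC (−0.87) passed the adjusted p alone.

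Of 20 tested mitochondrial tRNA synthetases and related enzymes 13 were below 0 (median −0.26) and 0 were called, with IARS2, the isoleucyl enzyme, past the adjusted p alone (−0.66 ± 0.16 (SE), adjusted p = 0.0402). Of 8 genes of mitochondrial transcription 6 were below 0 (median −0.88) and 2 were called, the elongation factor TEFM (−1.64 ± 0.43 (SE), adjusted p = 0.0431) and MTERF1 (−1.44 ± 0.37 (SE), adjusted p = 0.0432), a factor that ends transcription at a site next to the rRNA genes. TFAM, which packages and activates the mitochondrial genome, was not called (−0.58 ± 0.23 (SE), adjusted p = 0.105). Of 9 regulators of mitochondrial biogenesis 3 were below 0 and PPRC1, a coactivator related to PGC-1, was called higher, where 1.44% of all genes were. PPRC1 had 25.6 and 20.2 CPM in Sow, 28.97, 41.7 and 52.5 in Milk, 32.3, 46.6 and 61.1 in Soy, 52.3, 58.9 and 46.9 in M + E2 and 45.3, 45.4 and 56.6 in M + G, so that its Sow libraries were the lowest, and its log2 fold change was 1.13 ± 0.28 (SE), adjusted p = 0.0406. In the other 7 comparisons no gene of these lists was called.

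By reads, the members with the most were MRPL3 (507 to 1380 per library), MRPL37 (557 to 1267) and MRPL17 (364 to 1578) in the large subunit, and MRPS27 (484 to 1066), MRPS9 (403 to 672) and MRPS10 (207 to 1345) in the small. MRPS27 alone took 11.2% of the small subunit reads. The fewest were on MRPL10, MRPL28 (28 to 65) and MRPL43 in the large subunit, and on MRPS16, MRPS35 (60 to 153) and MRPS18C (48 to 223) in the small. Reads also depend on transcript length, which was not used here, so these are depths behind the values and not an order of expression. The 66 genes lie on 17 chromosomes of Sscrofa11.1, at most 8 on a chromosome. MRPS11 and MRPL46 are neighbours on chromosome 1, with 38 bases between the end of MRPS11 and the start of MRPL46. MRPS11 had 43.05 and 39.7 CPM in Sow and 23.6, 26.7 and 25.8 in M + E2 (log2 fold change −0.77, not called), and MRPL46 was called. Whether the authors' counting used strand is not given in the sources used here. The reads were short and single-ended, so reads shared with pseudogene copies, which mammalian genomes commonly hold for such genes, could have been split.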

How the data were processed

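Testis RNA of 15 samples was measured by short-read mRNA sequencing. Per the paper's methods, the authors trimmed reads and mapped them in CLC Genomics Workbench to a curated porcine gene library and then to Ensembl's pig genome. The deposited table holds raw read counts per gene and library, as its whole-number values show. All count columns were used (0 left out). The unnumbered Sow and Soy columns were matched to their group only. Columns were checked to be whole counts with differing totals, 6097552 to 9488579 reads per library, and no pair of replicates agreed within sampling noise. Where nothing says that libraries came from separate piglets, p-values measure only the spread between these samples, which may be technical.

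The tools were edgeR 4.0.16, which loads limma 3.58.1, and for an alternative DESeq2 1.42.0, under R 4.3.3. Library composition was scaled by TMM, and 15634 genes passed filterByExpr (minimum count 10) over 14 libraries, with Sow 2 left out as in the paper. A single fit of 5 groups by edgeR's quasi-likelihood test gave 8 comparisons and a 5-diet F test, with p-values adjusted over all genes. Standard errors are the log2 fold change divided by the square root of its F. The authors used edgeR's exact test, tried here as an alternative. The scripts were tested on simulated data. CPM has a prior count of 1 only where logged.

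Members, lists and alternatives were chosen with earlier results of these data known. Named genes were, per comparison and subunit, the called members (up to 8 by fold change) or, where fewer than 3 were called, the 3 with the smallest p. Added were the 3 per subunit with the smallest F test p, members above 0 in M + E2 against Sow, the 3 highest and lowest by reads, MRPS30, MRPS36 and the MRPS18 paralogs, untested members, and the called or smallest-p gene of each pathway list. MRPL2, MRPL30 and MRPS6, listed by identifier alone, are not members by the rule, and were below 0 and not called in M + E2 against Sow. The replicate numbers were checked for pairing by correlating deviations from group means. Same-numbered Milk and M + G libraries had r of 0.228, 0.49 and 0.412, all above 0.1, while other pairs of groups had values down to −0.472. Differently numbered libraries were not correlated, so these values cannot show whether the numbers mark pairs. Positions come from RefSeq for Sscrofa11.1 by symbol, which gave 66 of 66. Sequences were not printed, since no file used here held them.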

Additional observations from a re-analysis of the deposited data

Results flagged for a closer look

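Sow 2, the library that no comparison used, had a summed level of the 66 genes of 5316 CPM, above the 3682 and 3317 CPM of the other Sow libraries and above every library of the other groups. It is given here because its level stood out in a library outside the comparisons. The paper excluded this library for its low correlation values, so its level is not support for the results above. Its large subunit genes summed to 3475 CPM and its small subunit genes to 1840 CPM, and its log2 ratio of large to small subunit reads, 0.92, lay between those of the other Sow libraries. Its cytosolic ribosomal protein genes summed to 117847 CPM, also the highest of all libraries. With Sow 2 included, 31 members were called lower in M + E2 against Sow and 19 in M + G against Sow. These counts are given without the share of all genes.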

How the results depend on the processing

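In this section, every setting that left out a Sow library also put Sow 2 in its place, so those values mix both changes. Counts of members are given here without the share of all genes. For M + E2 against Sow the count was 31 with all 3 Sow libraries and 0 to 37 with a library left out. With the cytosolic ribosomal covariate (added after seeing the data) it was 0. It was 14 to 24 under the other alternatives, among them 23 without Milk 2, Soy 3 and M + G 2 together (added after seeing the data), and 57 of 65 members were below 0 under all 22 settings, the exceptions being MRPL12, MRPL43, MRPL47, MRPL52, MRPS5, MRPS21, MRPS24 and MRPS34. For M + G against Sow it was 19 with all 3 Sow libraries, 8 in a fit of only these groups, 5 by DESeq2's Wald test, 8 by edgeR's exact test and 0 to 21 with a library left out. For M + E2 against Milk it was 1 by the Wald test, 1 by the exact test and 0 to 17 with a library left out. The F test passed for 16 members with all 3 Sow libraries, for 1, MRPS27, with the covariate, and for 0 to 18 with a library left out. The other 5 comparisons gave 0 under every alternative. With the covariate the medians (large, then small where both are given) were −0.33 and −0.37 in M + E2 against Sow, −0.027 and −0.043 in M + G against Sow, −0.00037 and 0.035 in Soy against Sow, −0.016 in Milk against Sow (small), −0.34 in M + E2 against Milk (large) and −0.027 in M + G against Milk (large). With a library left out the median ranged from −1.06 to −0.77 in M + E2 against Sow (small), −0.75 to −0.24 and −0.69 to −0.21 in Soy against Sow, −0.58 to −0.093 and −0.53 to −0.057 in Milk against Sow, −0.87 to −0.46 and −0.75 to −0.34 in M + E2 against Milk, −0.66 to −0.197 and −0.58 to −0.21 in M + E2 against Soy, −0.49 to −0.17 and −0.42 to −0.099 in M + G against Milk and −0.43 to 0.018 and −0.36 to 0.050 in Soy against Milk. The last was above 0 in both subunits without Milk 1, without Soy 3, and without Milk 2, Soy 3 and M + G 2 together (0.057 and 0.067). The log2 ratio of the subunits, on mean log2 CPM, averaged 0.28 for M + E2, 0.30 for M + G, 0.34 for Soy, 0.35 for Sow and 0.36 for Milk, and by place 1.06, 1.15, 1.16, 1.15 and 1.198 in that order, since each measure weights or assigns the genes differently. MRPS34 in M + E2 against Sow, −0.19 to 0.16 with a library left out, turned to −0.048 with all 3 Sow libraries, −0.19 without the unnumbered Sow library, −0.15 without Sow 3 and −0.11 without M + E2 2. The cause of these changes was not tested. Of 1394 fits of single named members, 1230 kept direction and side of the threshold, 127 lost a call, 33 gained one and 4 changed sign. All 127 lost calls were in M + E2 against Sow, 105 of them with 1 library left out and 16 with the covariate. Members not called in the main fit could not lose a call, so the 1230 do not measure how stable the calls were.

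The replicate number was also used as a block over the numbered libraries. In the 3 comparisons with Milk and in M + E2 against Soy 0 members were called. On Milk and M + G alone it was 0 as well, so the block changed no call. No paired analysis was possible for Sow because, with Sow 2 out, 1 of its 2 libraries carries no number in its column name, and a number by elimination was not assigned. DESeq2's Wald test was not run for the 5-diet F test. Depth limits MRPL10 and MRPS16 most.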
